A study of Mus musculus with 19 samples.

Results

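Gramd1c encodes Aster-C, a protein of the endoplasmic reticulum that takes part in moving cholesterol away from the plasma membrane. It lies on the minus strand of chromosome 16 at chr16:43980350-44063345 of the mouse build GRCm38. The genes on either side of it are described here in the liver of wild type (Gramd1c+/+) and knockout (Gramd1c-/-) mice. The genes were chosen by position and by summed read counts: those whose lowest start in the count tables lay between 36 and 52 Mb of chromosome 16 and that had at least 190 counts over all 19 mice, with Gramd1c itself and Atp6v1a, Nr1i2 and Ndufb4 left out by name. This rule selected 60 of the 49315 genes in the files. Neither genotype nor diet entered the rule. The window held 195 gene starts in all, of which 131 had fewer than 190 counts and 70 of those had no count in any mouse.

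All mice were female. They were switched at 8 weeks of age to a synthetic diet with 0.02% (low) or 0.2% (high) cholesterol by weight and kept on it for 4 weeks. The low cholesterol groups comprised 5 wild type and 4 knockout animals, and the high cholesterol groups 5 animals of each genotype. The knockout is a global, knockout-first allele that carries a lacZ cassette within the gene, bred on a background labelled C57Bl6/N (strain C57BL/6N-Atm1Brd Gramd1ctm1a(KOMP)Wtsi/JMmucd in the study's methods), and the controls were wild type mice of the same crosses. Poly(A) RNA of whole liver was sequenced, 1 library per mouse, and the tables hold between 27149972 and 34669648 counts per mouse.

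A targeted allele changes more than the reading frame it interrupts: an inserted cassette brings its own promoter and polyadenylation signals, and stretches of chromosome next to it are inherited with it. For this reason the neighbours of a targeted gene are commonly examined along with the gene itself. Many of the neighbours here start back to back with another gene, from a short shared stretch of DNA, an arrangement that is common in mammals and known to allow joint transcription of both genes. The region also holds genes with well known liver functions, among them Hgd, which encodes the homogentisate dioxygenase of tyrosine breakdown, and Zbtb20, a transcriptional repressor abundant in the liver.

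The DNA in front of these genes is shown for Naa50 and Usf3, above Gramd1c, and for some pairs that start back to back, since the values below compare those genes with each other. Qtrt2 and Ccdc191, which lie nearer to Gramd1c, are not shown. The stretch before Naa50 begins where Atp6v1a, left out by name, ends. The stretches run between the ends of the genes in the count tables, or up to the start of the gene, and were cut from RefSeq promoter sequences of GRCm38.p6, which were matched for 44 of the 60 genes. Capitals mark, on either strand, the GC box with the letters GGGCGG. They also mark the box named after its own letters, CCAAT. The third motif in capitals is the E-box, which reads CACGTG. All are written along the plus strand from low to high coordinate.
Atp6v1a-Naa50, chr16:44139706-44139829, plus strand: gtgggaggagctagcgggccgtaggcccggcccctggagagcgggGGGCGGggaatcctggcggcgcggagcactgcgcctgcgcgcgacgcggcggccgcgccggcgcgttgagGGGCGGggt
Usf3, chr16:44173147-44173245, plus strand: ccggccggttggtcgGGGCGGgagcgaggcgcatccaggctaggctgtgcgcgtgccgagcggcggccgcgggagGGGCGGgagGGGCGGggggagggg
Fam162a-Ccdc58, chr16:36071516-36071659, plus strand: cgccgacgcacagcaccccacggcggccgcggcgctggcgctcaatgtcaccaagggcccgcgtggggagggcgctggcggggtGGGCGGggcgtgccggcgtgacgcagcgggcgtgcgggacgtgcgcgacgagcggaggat
Gtf2e1-Rabl3, chr16:37539790-37539884, plus strand: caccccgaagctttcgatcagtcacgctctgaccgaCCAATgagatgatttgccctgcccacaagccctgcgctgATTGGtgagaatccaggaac
Slc35a5-Atg3, chr16:45158707-45158784, plus strand: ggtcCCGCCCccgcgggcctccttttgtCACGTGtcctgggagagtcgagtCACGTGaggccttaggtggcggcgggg
The stretch before Naa50 held 2 GC boxes and that before Usf3 held 3, the stretch between Gtf2e1 and Rabl3 held 2 CCAAT boxes, and the stretch between Slc35a5 and Atg3 held 2 E-boxes and 1 GC box. Among the 44 matched promoters of 300 bases, 23 held a GC box on either strand (52.3%), against 35.9% of all 27025 promoters in the reference. The CCAAT box was in 18 of them (40.9%, against 37.9% of all), and the E-box in 7 (15.9%, against 7.24%). An ETS-type motif, CCGGAAG, was in 11 (25%, against 9.12%) and the TATA box, spelled TATAAA, in 7 (15.9%, against 14.2%), and neither occurs in the printed stretches. The counts describe letters in a window and carry no test. The 44 genes had at least 190 counts in these livers, whereas the promoters of the reference were not chosen by expression.

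In counts and distances below, the start of a gene is its lowest coordinate. On the minus strand, transcription begins at the other end. Of the 60 genes, 33 started below Gramd1c and 27 above it. They comprised 55 protein-coding genes, 3 processed pseudogenes, 1 long intergenic RNA (Dubr) and 1 antisense RNA (Gm15638). The members nearest to the count minimum on the inside were Cd80, with 193 counts in all, and Cd96, with 197. Just outside lay Lsamp with 180 and Ildr1 with 173. At the lower end of the window, Wdr5b and Fam162a were the first genes inside, while Gm15564 and Kpna1 began below 36 Mb. At the upper end, Dubr and Gm6767 were the last inside, and Cblb and Alcam began above 52 Mb. All 60 passed the filter on low counts and were tested with the other genes, 15016 in all.

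The genotype labels were checked on the targeted gene. Gramd1c was at 9.56 to 16 TPM (transcripts scaled to a fixed library total, from counts divided by gene length) in the wild type mice and at 1.07 to 3.61 TPM in the knockout mice. The log2 fold change, knockout over wild type, was -2.89 (SE 0.30) on low cholesterol and -2.58 (SE 0.27) on high cholesterol, with adjusted p of 9.79e-05 and 1.18e-04 in edgeR. The tissue field of the labels names gonadal adipose tissue while the protocol and cell type name liver. The hepatocyte markers summed to between 83930 and 133508 TPM, and the adipocyte markers to between 1.60 and 23.9 TPM. Markers of other cell types were high in single libraries. The adrenal cortex markers summed to 378 TPM in 1 wild type mouse on low cholesterol, number 2, and to at most 2.96 TPM elsewhere, and this mouse also had the highest adipocyte and mesothelial sums (23.9 and 12.2 TPM). The cholangiocyte markers summed to 213 TPM in knockout mouse 3 on high cholesterol, against at most 85.2 TPM in any other mouse. Of these markers, Krt19 (120 TPM) and Epcam (15.8 TPM) were highest in that mouse. Sox9 was highest in wild type mouse 1 on low cholesterol (3.28 TPM) and Spp1 in knockout mouse 5 on high cholesterol (79.1 TPM). The Kupffer cell markers summed to 367 TPM in knockout mouse 4 on high cholesterol, against at most 211 TPM. Knockout mouse 5 on high cholesterol lay apart on the first principal component. Where values are given without 3 libraries, these are wild type mouse 2 on low cholesterol and knockout mice 3 and 5 on high cholesterol, left out together. In whole tissue, fewer cells of a type and less RNA per cell cannot be told apart.

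Whether the genes beside Gramd1c differed between the genotypes was asked on each diet. No member was called at an adjusted p below 0.05 in edgeR on low cholesterol (0 of 60, smallest adjusted p 0.999). There 0.00666% of all tested genes were called, a single gene, Gramd1c itself. Gramd1c was also the single gene called in edgeR on high cholesterol and in the average of both diets. On high cholesterol, 0 of 60 were called (smallest adjusted p 1, 0.00666% of all genes), and in the average of both diets 0 of 60 were called (smallest adjusted p 0.999, 0.00666% of all genes). The interaction of genotype and diet was called for 0 of 60 members and for 0% of all genes. DESeq2 also called 0 of 60 members in each of these comparisons, beside 0.00669% of all genes for genotype on each diet and on average and 0% for the interaction. At an unadjusted p below 0.05, edgeR gave 2 of 60 members on low cholesterol, beside 2.66% of all genes, and 2 of 60 on high cholesterol, beside 2.42%. The count was 1 of 60 in the average of both diets (2.98% of all genes) and 1 of 60 in the interaction (1.66%). DESeq2 gave 2, 2, 1 and 2 members at that unadjusted level in the same 4 comparisons, beside 2.72%, 2.40%, 3.13% and 1.73% of all genes.

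The size of the differences was close to that over all genes. The median of the 60 log2 fold changes was -0.033 on low and 0.054 on high cholesterol, where the median over all tested genes was -0.0014 and 0.0088. Neither sign held when single mice were left out: without wild type mouse 2 the low cholesterol median was 0.062, and without knockout mouse 5 the high cholesterol median was -0.0024. The median absolute log2 fold change of the members was 0.14 on low cholesterol and 0.12 on high, against 0.14 and 0.11 over all genes. It was 0.12 and 0.093 for the 397 tested genes of chromosome 16 outside the window. The 95% interval lay inside a 2-fold change in either direction for 47 members on low cholesterol (80.1% of all genes), for 46 on high cholesterol (81.4%) and for 54 in the average of both diets (90.7%). The 6 members whose averaged interval reached past 2-fold were Slc15a2, Fbxo40, BC002163, Boc, Gm15638 and Gm6767, which had between 216 and 2958 counts in all mice together. Summed over all 60 members, the level was 1697 ± 173 CPM (counts per library size adjusted by TMM, edgeR's scaling factors, mean ± SD, n = 5) in wild type and 1726 ± 106 (n = 4) in knockout mice on low cholesterol. On high cholesterol it was 1860 ± 212 (n = 5) in wild type and 1735 ± 60.8 (n = 5) in knockout mice.

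**Figure D1:**
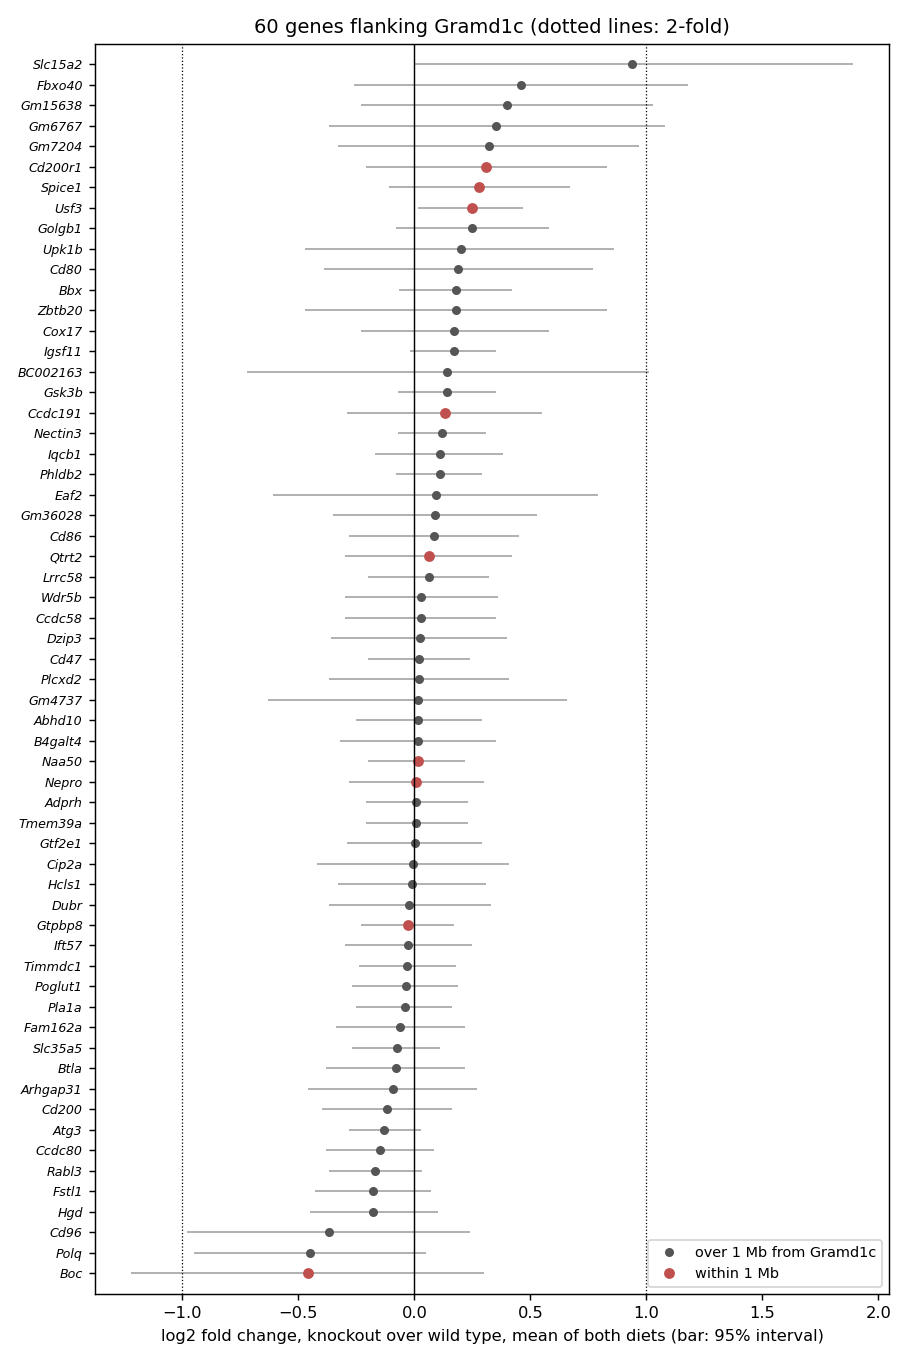
Log2 fold change of each of the 60 genes, knockout over wild type averaged over both diets, with its 95% interval (bars). Points in red are the 9 genes that start within 1 Mb of Gramd1c. The interval of Usf3 lies above 0, and the intervals of 54 genes lie between the dotted lines at 2-fold.

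The 9 members that started within 1 Mb of Gramd1c were Qtrt2 and Ccdc191 below it and Naa50, Usf3, Spice1, Boc, Nepro, Gtpbp8 and Cd200r1 above it. Since Gramd1c is on the minus strand, the genes below it lie in its direction of transcription. The gene next to it in that direction, Zdhhc23, a protein palmitoyltransferase, lay 1257 bases from it but had 77 counts in all mice together and was no member. Its counts were 5, 8, 5, 7 and 1 in the wild type and 1, 1, 0 and 7 in the knockout mice on low cholesterol. With high cholesterol the counts were 2, 1, 4, 14 and 3 in the wild type and 1, 2, 6, 7 and 2 in the knockout mice, too few to rank the groups.

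Qtrt2, a subunit of the enzyme that places queuine into tRNA, started 119 kb below Gramd1c at chr16:43861407-43926809. On low cholesterol it was at 1.62, 2.23, 1.38, 1.90 and 2.02 TPM in the wild type and 1.40, 1.99, 1.39 and 2.09 TPM in the knockout mice. On high cholesterol it was at 2.0, 2.15, 1.49, 1.91 and 2.80 TPM in the wild type and 1.27, 2.29, 2.99, 1.92 and 4.04 TPM in the knockout mice. The genotypes overlapped on both diets, with log2 fold changes of -0.091 (SE 0.25) and 0.22 (SE 0.23). Ccdc191, which overlaps Qtrt2 on the opposite strand and encodes a coiled-coil protein, was at 1.54 to 2.41 TPM in the wild type and 1.96 to 2.38 TPM in the knockout mice on low cholesterol. On high cholesterol it was at 1.62, 3.33, 3.51, 2.88 and 2.55 TPM in the wild type and 2.37, 1.81, 2.84, 2.55 and 5.58 TPM in the knockout mice. Its log2 fold changes were 0.21 (SE 0.29) and 0.050 (SE 0.27). The highest value of both genes was in knockout mouse 5, and without it the high cholesterol values were -0.081 for Qtrt2 and -0.35 for Ccdc191. Whether the counting used strand is not given in the sources, so reads of these overlapping genes cannot be assigned with certainty.

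Naa50, an N-terminal acetyltransferase that starts 159 kb above Gramd1c, was the most abundant of the 9. It was at 51.3, 56.3, 44.6, 55.2 and 50.8 TPM in the wild type and 51.2, 57.8, 57.4 and 55.8 TPM in the knockout mice on low cholesterol. On high cholesterol both genotypes spread more widely, from 32.9 to 62.8 TPM in the wild type and from 27.7 to 62.9 TPM in the knockout mice. Its log2 fold changes were 0.11 (SE 0.15) and -0.079 (SE 0.14), and the averaged 95% interval ran from -0.20 to 0.22.

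Usf3, a basic helix-loop-helix protein of the upstream stimulatory factor family, starts 193 kb above Gramd1c and had the smallest p on low cholesterol among the 60 members. Its levels there were 5.27, 4.67, 3.32, 3.72 and 4.28 TPM in the wild type and 4.84, 7.22, 5.39 and 6.21 TPM in the knockout mice. The knockout mice thus lay higher on average (5.91 ± 1.04 against 4.25 ± 0.771 TPM), with 1 knockout value below the highest wild type value. The log2 fold change was 0.47 (SE 0.16, 95% interval 0.14 to 0.81), with an unadjusted p of 0.00777 and an adjusted p of 0.999 in edgeR. On high cholesterol Usf3 was at 4.28, 4.06, 3.13, 6.93 and 6.12 TPM in the wild type and 4.44, 4.16, 7.17, 5.72 and 4.35 TPM in the knockout mice. These groups overlapped throughout, and the log2 fold change was 0.017 (SE 0.15). The difference between the diets was -0.46 (SE 0.22, unadjusted p 0.0517).

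Spice1, a protein of the spindle and centrioles, was at 0.707 to 1.47 TPM in wild type and 0.892 to 1.06 TPM in knockout mice on low cholesterol. On high cholesterol it was at 0.794, 0.841, 1.02, 1.09 and 1.40 TPM in the wild type and 1.01, 1.18, 1.85, 0.896 and 2.47 TPM in the knockout mice. The groups overlapped, with a log2 fold change of 0.47 (SE 0.25). Knockout mice 3 and 5 held the highest values, and without the 3 libraries the value was -0.015. Boc, a surface receptor of the hedgehog pathway, was at 0.135, 0.962, 0.133, 0.111 and 0.169 TPM in the wild type and 0.130, 0.152, 0.123 and 0.174 TPM in the knockout mice on low cholesterol. The single high value came from wild type mouse 2, the library with the adrenal markers, and the log2 fold change went from -0.98 (SE 0.53) to 0.022 without it. The part of the other tissue in that value was not tested otherwise.

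Nepro, a nucleolar protein, and Gtpbp8, a mitochondrial GTP-binding protein, overlap at their ends 744 and 756 kb above Gramd1c. Nepro was at 2.10 ± 0.231 TPM in the wild type (n = 5) and 1.98 ± 0.463 TPM in the knockout mice (n = 4) on low cholesterol, and at 2.03 ± 0.678 and 2.28 ± 0.617 TPM (n = 5 each) on high cholesterol. Gtpbp8 was at 8.74 ± 1.62 and 8.29 ± 0.744 TPM on low cholesterol and at 8.46 ± 1.86 and 8.99 ± 1.43 TPM on high cholesterol. Cd200r1, an inhibitory receptor of myeloid cells, was at 0.589 ± 0.234 and 0.653 ± 0.147 TPM on low cholesterol and at 0.595 ± 0.278 and 0.818 ± 0.288 TPM on high cholesterol. For these 3 genes the genotypes differed by less than the spread between mice, with log2 fold changes between -0.093 and 0.45.

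**Figure D2:**
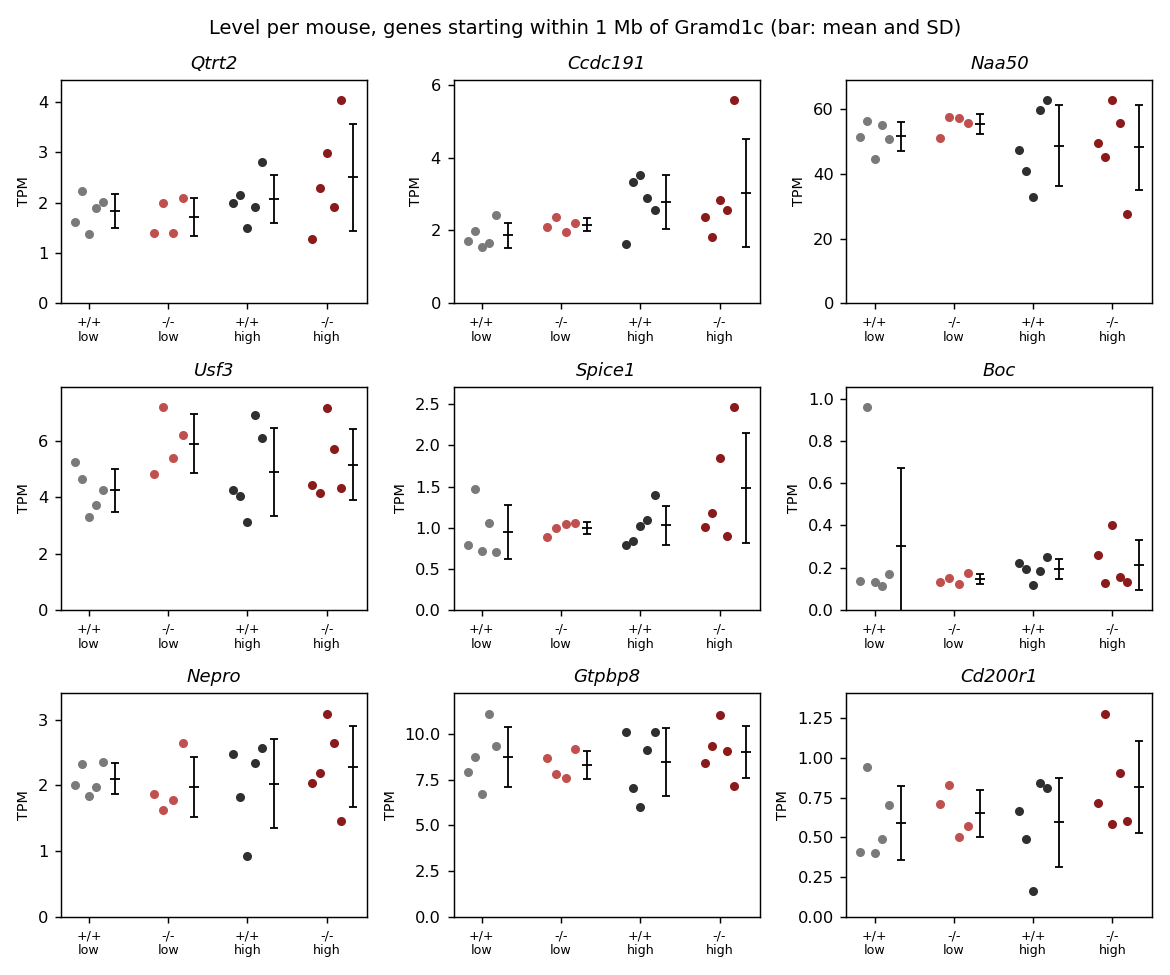
TPM (vertical axes) in each mouse for the 9 genes that start within 1 Mb of Gramd1c, in wild type (+/+) and knockout (-/-) mice on each diet; points are mice and bars show the mean and SD, cut at 0 for Boc. The genotypes overlap in every panel on both diets, and the single high Boc value of 0.962 TPM belongs to wild type mouse 2.

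Distance from Gramd1c was measured between gene starts, that is, between lowest coordinates on either strand. On low cholesterol the median absolute log2 fold change was 0.11 for the 9 members within 1 Mb, 0.17 for the 11 between 1 and 2 Mb, 0.29 for the 3 between 2 and 4 Mb and 0.13 for the 37 between 4 and 8 Mb. In high cholesterol feeding it was 0.079, 0.12, 0.26 and 0.13 in the same order. The 3 genes with the largest median also had the largest standard errors (median 0.43 and 0.39). Leaving out 1 mouse moved the median of the 9 nearest genes to as much as 0.23 on low cholesterol (without knockout mouse 4) and 0.19 on high cholesterol (without knockout mouse 2), and on high cholesterol it exceeded 0.12 without wild type mouse 3 or 5 (0.14 each) or knockout mouse 3, 4 or 5 (0.14, 0.13 and 0.15). The other bins were not recomputed in this way. Over the 60 genes, Spearman's rho between distance and absolute log2 fold change was 0.021 on low cholesterol and 0.18 on high. The genes share the same libraries, so these values are a description. The absolute log2 fold change went with the standard error of the gene (rho 0.32 and 0.58). That standard error was computed from the same log2 fold change and the F statistic of its test, so they are not independent. On the 2 sides of Gramd1c the median absolute log2 fold change was 0.13 below and 0.16 above on low cholesterol, and 0.17 below and 0.10 above on high cholesterol.

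**Figure D3:**
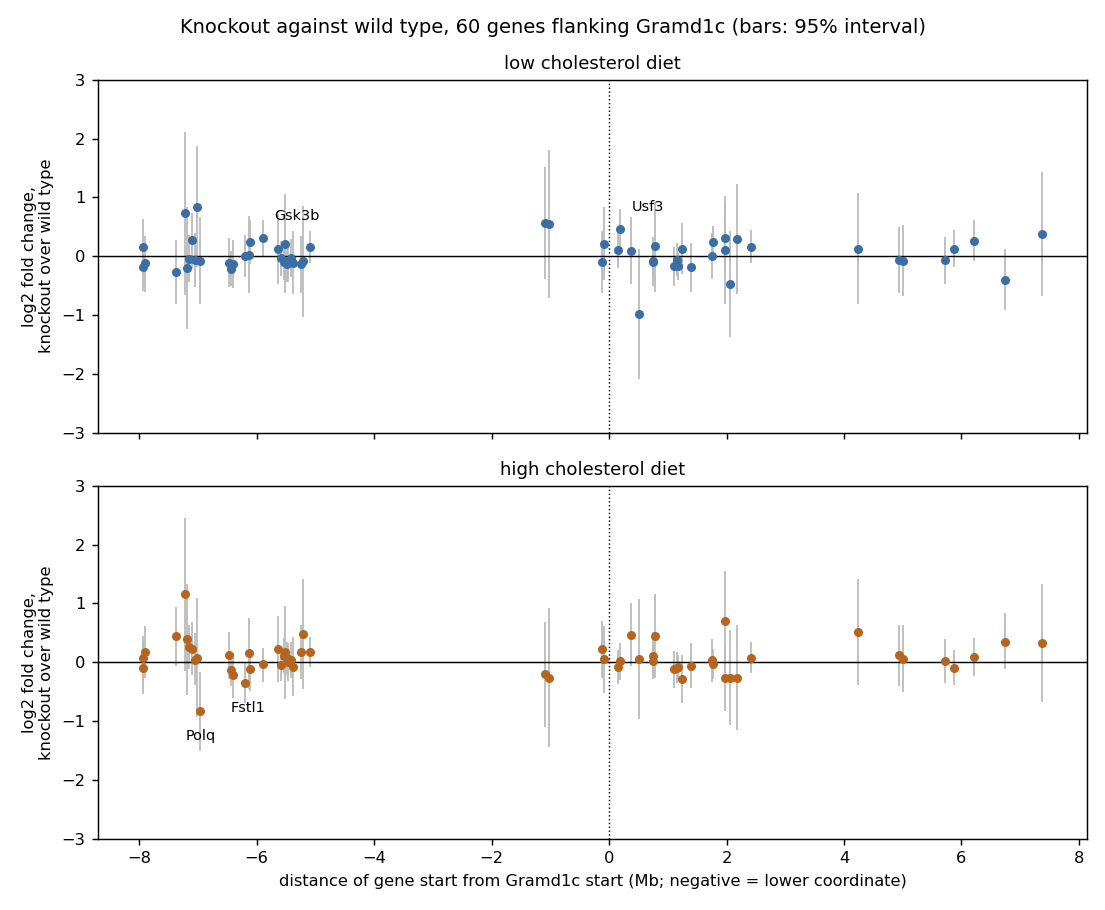
Log2 fold change, knockout over wild type, with its 95% interval (bars) against the distance of each gene start from the start of Gramd1c in Mb, on low (upper panel) and high cholesterol (lower panel). The named genes had an unadjusted p below 0.05. The points nearest to the dotted line at 0 Mb lie among the rest, with Usf3 at 0.47 on low cholesterol.

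The other members at an unadjusted p below 0.05 lay several Mb away. Gsk3b, a serine/threonine kinase of insulin and Wnt signalling, starts 5891 kb below Gramd1c. On low cholesterol it was at 7.76, 6.95, 7.96, 5.38 and 6.58 TPM in the wild type and 8.22, 8.95, 8.48 and 9.0 TPM in the knockout mice, so that every knockout mouse lay above every wild type mouse. The log2 fold change was 0.31 (SE 0.15), with an unadjusted p of 0.0453 and an adjusted p of 0.999 in edgeR. The margin was narrow: on the CPM scale the highest wild type value was 37.5 and the lowest knockout value 37.7. On high cholesterol Gsk3b was at 5.76, 6.26, 5.64, 8.64 and 7.11 TPM in the wild type and 5.77, 4.67, 9.85, 8.34 and 5.93 TPM in the knockout mice, with a log2 fold change of -0.035 (SE 0.14).

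Fstl1, a secreted glycoprotein of mesenchymal cells, had a log2 fold change of -0.36 on high cholesterol (SE 0.16, unadjusted p 0.0393, adjusted p 1 in edgeR). Its CPM there were 11.7, 12.8, 14.2, 13.6 and 12.9 in the wild type and 11.1, 9.71, 11.1, 8.09 and 10.9 in the knockout mice. Those values did not overlap, whereas the TPM did, the knockout mice reaching 6.0 and the wild type mice starting at 5.10. The corresponding low cholesterol value was 0.0027 (SE 0.17). Polq, the DNA polymerase theta of end joining, was at 14 to 21 counts per wild type mouse and 7 to 13 counts per knockout mouse on high cholesterol. Its log2 fold change was -0.83 there (SE 0.32, unadjusted p 0.0181) and -0.075 (SE 0.35) on low cholesterol.

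Counted over all members on the CPM scale, the genotypes did not overlap for 1 member that was higher in the knockout mice on low cholesterol (1.06% of all genes) and for 0 that were lower (1.17%). The share of all tested genes without overlap in either direction, 2.23% on low cholesterol with all mice, was taken from each fit. The low cholesterol count was 5 without wild type mouse 1 (5.06% of all genes) or knockout mouse 4 (5.88%) and 3 without wild type mouse 2 (4.65%), wild type mouse 3 (3.44%) or knockout mouse 1 (5.13%). It was 2 without wild type mouse 4 (3.06%) or 5 (3.35%), and 0 without high cholesterol wild type mouse 2 or 3 or knockout mouse 2 or 3 (2.37% to 2.46%), which enter through the scaling alone. On high cholesterol the count was 0 higher (0.0799% of all genes) and 2 lower, Fstl1 and Polq (0.127%). On the TPM scale, Gsk3b was the one member without overlap on low cholesterol (0.693% of all genes higher, 1.04% lower), and on high cholesterol there was none (0.186% higher, 0.0599% lower). Both diets are set side by side in the plot of their fold changes. The same sign was seen on both diets for 26 of the 60 members (43.3%), against 52.8% of all tested genes. The share ran from 38.3% to 55.0% when single mice were left out, and the diets share no mice. Slc15a2, a peptide transporter of the plasma membrane, had large values of the same sign on both diets, at 0.73 (SE 0.66) and 1.16 (SE 0.62). Its TPM on high cholesterol were 0.225, 0.590, 0.407, 0.530 and 0.275 in the wild type and 0.148, 0.115, 0.886, 1.01 and 2.59 in the knockout mice, so that the knockout mice held both the lowest and the highest values. Without the 3 libraries, its high cholesterol value was -0.024.

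**Figure D4:**
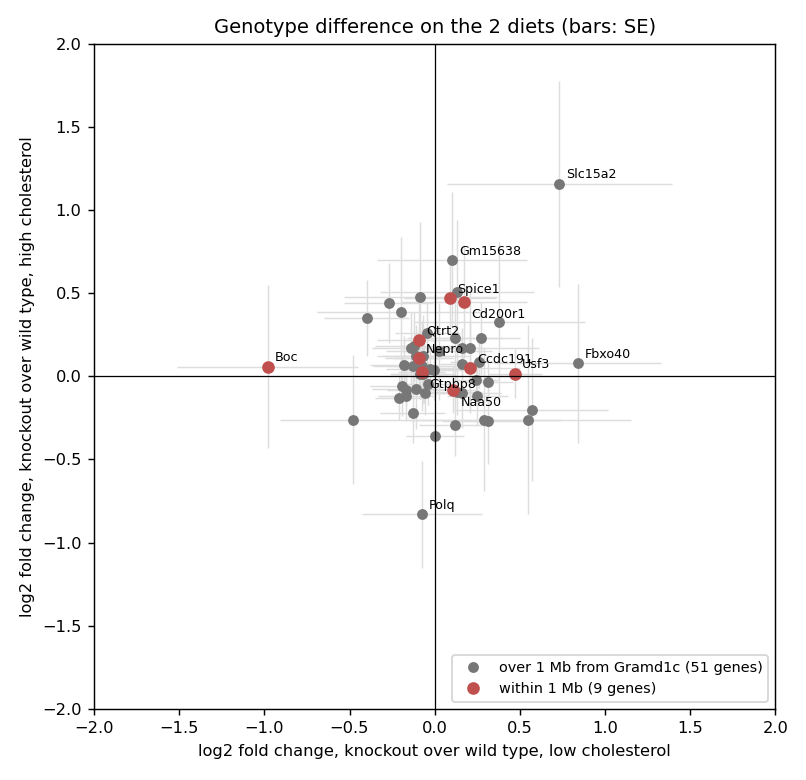
Log2 fold change, knockout over wild type, on low cholesterol (horizontal axis) and high cholesterol (vertical axis) for the 60 genes, with SE (bars) and the 9 genes within 1 Mb in red. Of the 60 genes, 26 have the same sign on both axes, and the farthest from the centre are Slc15a2, Boc, Fbxo40 and Polq.

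The members were also grouped by what they are known to do. None of the 9 groups had a member at an adjusted p below 0.05 on either diet. Of the 18 group medians below, 13 changed sign in at least 1 of the fits that left out a single mouse. The 6 genes of mitochondrial proteins were Fam162a, Ccdc58, Cox17, Timmdc1, Gtpbp8 and Abhd10, with a median log2 fold change of -0.10 on low and 0.065 on high cholesterol. Of these, 1 lay above 0 on low cholesterol (49.7% of all genes) and 6 on high cholesterol (52.2%). Without wild type mouse 4 the low cholesterol count was 4, and on high cholesterol it was 2 without knockout mouse 5, 4 without wild type mouse 4 or knockout mouse 2, and 5 without wild type mouse 3 or 5. Fam162a, the most abundant of them, was at 137, 147, 136, 176 and 165 TPM in the wild type and at 136, 135, 137 and 128 TPM in the knockout mice on low cholesterol. With high cholesterol it was at 162, 179, 180, 145 and 138 TPM in the wild type and at 163, 188, 135, 153 and 243 TPM in the knockout mice. The 8 genes of immune cell surface or lymphocyte proteins had medians of 0.030 and -0.0041. Among them, Cd86, a ligand that stimulates T cells, had -0.27 (SE 0.26) and 0.44 (SE 0.24), with its highest level, 3.36 TPM, in knockout mouse 4, the library with the highest Kupffer cell sum. Hcls1, a cytoskeletal protein of blood cells, and Cd80 were also highest there, at 15.5 and 0.884 TPM. The other members of this group, Cd200r1, Btla, Cd200, Cd96 and Cd47, were each highest in another mouse. Cd47, a ubiquitous signal against engulfment, was at 36.6 to 43.8 TPM in the wild type and 41.2 to 46.8 TPM in the knockout mice on low cholesterol, with a log2 fold change of 0.13 (SE 0.15).

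The 6 metabolic enzymes and transporters had medians of 0.10 and -0.084. Hgd, the most abundant of all members at a mean of 554 TPM, was at 560 ± 101 TPM in the wild type (n = 5) and 512 ± 52.5 TPM in the knockout mice (n = 4) on low cholesterol, and at 591 ± 84.8 and 544 ± 135 TPM (n = 5 each) on high cholesterol. Its log2 fold changes were -0.13 (SE 0.19) and -0.22 (SE 0.18). Pla1a, a phospholipase that acts on phosphatidylserine, had -0.038 (SE 0.14) and -0.043 (SE 0.13), and Plcxd2, a phospholipase C-like protein, had 0.31 (SE 0.27) and -0.27 (SE 0.26). The 9 genes of transcription, DNA repair or RNA proteins had medians of -0.075 and 0.017. In that group Zbtb20 was at 2.60 to 4.67 TPM in the wild type and 4.49 to 7.27 TPM in the knockout mice on low cholesterol, with 2 of the 4 knockout values above the highest wild type value and a log2 fold change of 0.57 (SE 0.45). On high cholesterol it spread from 3.15 to 12.8 TPM in the wild type and from 2.20 to 14.3 TPM in the knockout mice, with -0.20 (SE 0.43), or 0.25 without wild type mouse 3.

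The 3 genes of signalling or autophagy were Fbxo40, Gsk3b and Atg3, with medians of 0.31 and -0.035. Atg3, the conjugating enzyme of autophagy, was at 53.5 ± 4.86 and 47.6 ± 3.26 TPM on low cholesterol and at 54.4 ± 3.57 and 54.1 ± 1.97 TPM on high cholesterol, with log2 fold changes of -0.17 (SE 0.11) and -0.081 (SE 0.10). The 7 genes of adhesion or extracellular proteins had medians of 0.0027 and 0.058, and Nectin3, an adhesion molecule of cell junctions, had 0.16 (SE 0.13) and 0.077 (SE 0.13). The 7 genes of cilium, centrosome or microtubule proteins had medians of -0.069 and 0.061, with Rabl3, a small GTPase, at -0.21 (SE 0.14) and -0.13 (SE 0.13). The 6 genes of the secretory pathway had medians of -0.074 and 0.027, with Golgb1, the Golgi protein giantin, at 0.27 (SE 0.23) and 0.23 (SE 0.22). Its high cholesterol value was -0.072 without knockout mouse 5 and -0.22 without the 3 libraries. The 7 pseudogenes, predicted genes and non-coding RNAs had medians of 0.13 and 0.33 and reads that they may share with other copies were not measured. Bbx, a transcription factor that stood in no group, had 0.26 (SE 0.17) and 0.089 (SE 0.16). Without the 3 libraries its high cholesterol value was -0.14. Bbx did not enter the medians given above for the genes of transcription, DNA repair or RNA proteins.

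**Figure D5:**
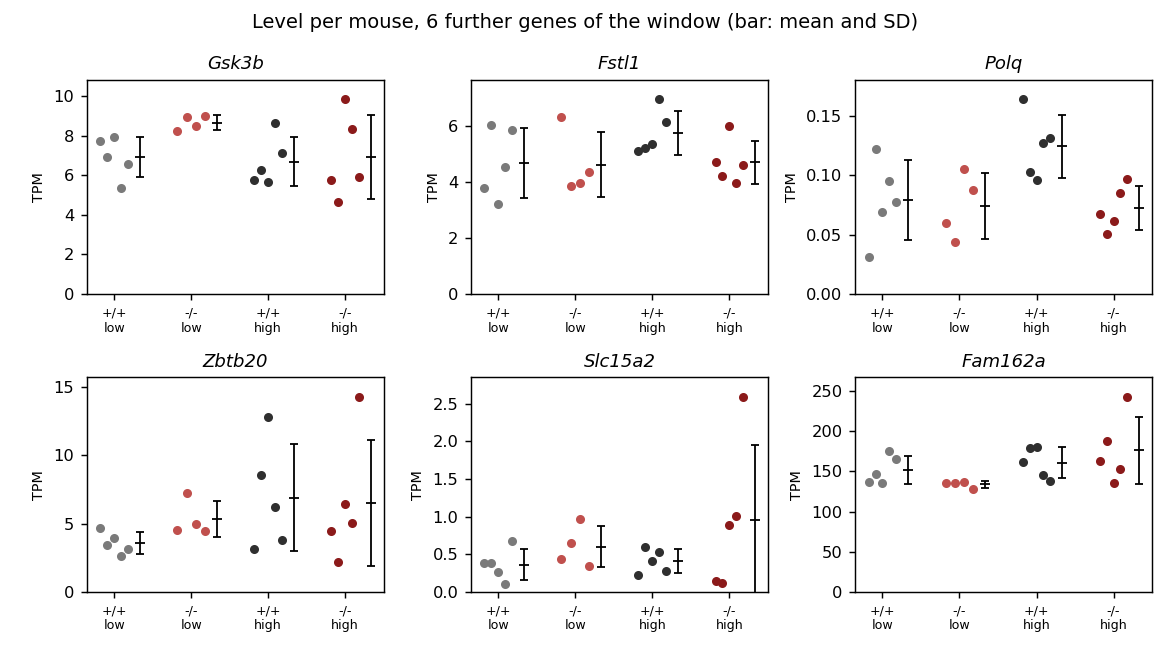
TPM (vertical axes) in each mouse for 6 members named in the text, in wild type (+/+) and knockout (-/-) mice on each diet; points are mice and bars the mean and SD, cut at 0 for Slc15a2. Gsk3b is the one gene whose genotypes do not overlap on low cholesterol, from 8.22 TPM in the knockout and up to 7.96 TPM in the wild type mice.

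Diet was compared within each genotype for the same genes. In wild type mice 0 of 60 members were called at an adjusted p below 0.05 in edgeR between high and low cholesterol, beside 0.440% of all genes, and in knockout mice 0 of 60, beside 0.326%. At an unadjusted p below 0.05 the counts were 9 of 60 in wild type (7.93% of all genes) and 6 of 60 in knockout mice (11.4%), and DESeq2 gave 8 (8.57%) and 7 (11.8%). Zbtb20 had a log2 fold change of 1.06, high over low cholesterol, in wild type mice (SE 0.43, unadjusted p 0.0239, adjusted p 0.556 in edgeR). Igsf11, an adhesion protein of the immunoglobulin family, had -0.28 (SE 0.12) in wild type and -0.27 (SE 0.13) in knockout mice and was not called in either. Dubr, a long intergenic RNA, had the one unadjusted p below 0.05 in the interaction (0.75, SE 0.34, p 0.0376 in edgeR, adjusted p 1). On low cholesterol it was at 0.560, 0.757, 0.428, 0.605 and 0.541 TPM in the wild type and 0.416, 0.397, 0.401 and 0.529 TPM in the knockout mice. Under high cholesterol it was at 0.484, 0.380, 0.583, 0.439 and 0.656 TPM in the wild type and 0.777, 0.391, 0.919, 0.570 and 0.787 TPM in the knockout mice.

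Some pairs of members varied together from mouse to mouse after the group means were removed, which is given as a description over the same 19 libraries. Fam162a and Ccdc58, separated by the 144 bases printed above, had a correlation of 0.89, and Gtf2e1 and Rabl3, separated by 95 bases, had 0.74. Both values include knockout mouse 5 on high cholesterol. Of all mice, it had the highest CPM of Fam162a (74.2) and Ccdc58 (34.0) and the lowest of Gtf2e1 (6.38) and Rabl3 (7.91). The other pairs with a short gap had lower correlations, at 0.45 for Dzip3 and Cip2a (19 bases), 0.26 for Eaf2 and Golgb1 (136 bases) and 0.23 for Slc35a5 and Atg3 (78 bases). Over all 1770 pairs of members the median correlation was 0.0077 and over the 59 pairs of neighbours it was 0.11. High values also occurred between distant members, such as 0.90 for Zbtb20 and Cd47 and 0.88 for Ccdc58 and Timmdc1. Gtf2e1 had higher values with the distant Nectin3 (0.84), Naa50 (0.82) and Poglut1 (0.80) than with Rabl3. Fam162a had 0.87 with the distant Cox17, slightly below its value with Ccdc58. Of the 9 nearest genes, Gramd1c itself went with Qtrt2 (0.68), Ccdc191 (0.65) and Spice1 (0.53) and against Naa50 (-0.69). Knockout mouse 5 on high cholesterol had the highest Gramd1c level of its group (3.61 TPM) as well as the highest Qtrt2, Ccdc191 and Spice1 and the lowest Naa50 level of its group.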

How the data were processed

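The deposited values, made by the authors from poly(A) libraries of 19 mice, are unnormalized whole-number counts for Ensembl genes, with positions and lengths. The submitters' processing notes give STAR 2.5.2b and GRCm38. For the counting step, tool and strand setting are not given in the sources read. Total counts per mouse were 27149972 to 34669648, and the common biological coefficient of variation was 0.255.

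Counts were tested in edgeR 4.0.16 (R 4.3.3): library sizes were scaled by TMM, genes were filtered by group (filterByExpr, minimum count 10), and a model with 1 mean per group over all 19 mice was tested by quasi-likelihood, with Benjamini-Hochberg adjustment over 15016 genes. Intervals are 95%. TPM were computed here from counts and lengths for display. Correlations used residuals of log2(CPM + 0.5) from group means. Sequences came from RefSeq. Each mouse is a separate animal.

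The members, the role and marker lists and the rule for named genes (members within 1 Mb, the smallest p in each direction, the most abundant, those beside each threshold, and up to 3 per role list) were chosen with earlier results of these data known. The scripts were tested on simulated data. Alternatives were other size factors (RLE), DESeq2 1.42.0, no filter, a minimum count of 50, only the groups compared, a replicate block, a term for the library number run, gaps between gene bodies for distance, and leaving out each mouse. A further 2 were added after seeing the data: leaving out 3 libraries together, and TPM for overlap.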

Additional observations from a re-analysis of the deposited data

Results flagged for a closer look

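A value far from the rest of its group was found in 4 of the 80 groups of 4 or 5 mice examined, that is, in the 4 groups of 20 of the named members; chance alone would flag about 1 in 20 groups. Boc was at 0.962 TPM in wild type mouse 2 on low cholesterol, against 0.111 to 0.169 TPM in the other mice of that group, in the library with the adrenal markers. Ccdc191 was at 5.58 TPM in knockout mouse 5 on high cholesterol, against 1.81 to 2.84 TPM. Dubr was at 0.529 TPM in knockout mouse 4 on low cholesterol, against 0.397 to 0.416 TPM. Rabl3 was at 3.86 TPM in wild type mouse 3 on low cholesterol, against 4.62 to 4.89 TPM. No member moved without overlap in opposite directions on the 2 diets.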

How the results depend on the processing

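No member tested was called at an adjusted p below 0.05 under any of the 27 alternatives, the 19 that leave out 1 mouse included. All 6 comparisons were run, except that fits of only the groups compared gave 4 of them. The minimum count of 50 left 48 members and the fits of only the groups compared 57. Apart from the fits that leave out 1 mouse, each alternative fit called 1 of all genes for genotype on each diet. For diet these fits called 47 to 111 of all genes in wild type and 36 to 94 in knockout mice. The smallest adjusted p of a member was 0.746 for genotype and 0.0879 for diet. The count of members whose genotypes do not overlap was 1 on low and 2 on high cholesterol. Beside each alternative stands the share of all genes in the same fit. On low cholesterol it was 0 without a filter (1.42%), 2 with a minimum count of 50 (2.53%), 2 without the 3 libraries that stood apart (4.93%), and 0 to 5 when single mice were left out (2.23% to 5.88%). In high cholesterol feeding it was 1 with a minimum count of 50 (0.135%), 4 without the 3 libraries (1.37%), and 2 to 3 when single mice were left out (0.203% to 0.615%). On the TPM scale the high cholesterol count was 0 (0.186% of all genes higher, 0.0599% lower). Distance by the gap between gene bodies gave medians of 0.14 on low and 0.095 on high cholesterol for genes within 1 Mb. The cause of these shifts was not tested.

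Some named genes changed sign by more than their SE. On high cholesterol, without the 3 libraries together, Bbx was at -0.14, Ccdc191 at -0.36, Golgb1 at -0.22, Qtrt2 at -0.20, Slc15a2 at -0.024, Slc35a5 at 0.034 and Spice1 at -0.015, and in the average of both diets Ccdc191 was at -0.094, Qtrt2 at -0.14 and Zbtb20 at -0.22. Boc on low cholesterol was at 0.0094 without the 3 libraries and 0.022 without wild type mouse 2, and 0.040 on average without that mouse. Without knockout mouse 5 on high cholesterol, Ccdc191 was at -0.35, Golgb1 at -0.072 and Qtrt2 at -0.081. Single mice also turned Cd47 (0.067) and Zbtb20 (0.25) without wild type mouse 3, Wdr5b (0.13) without wild type mouse 5, Gm6767 (-0.26) without knockout mouse 2 and Hcls1 (-0.25) without knockout mouse 4, all on high cholesterol, and Fstl1 (-0.21) without knockout mouse 1 on low cholesterol. When single mice were left out, the values ran from -1.18 to 0.022 (low) and -0.60 to 0.040 (average) for Boc, -0.21 to 0.11 for Fstl1 on low cholesterol, and on high cholesterol -0.35 to 0.23 for Ccdc191, -0.19 to 0.067 for Cd47, -0.26 to 0.57 for Gm6767, -0.072 to 0.40 for Golgb1, -0.25 to 0.12 for Hcls1, -0.081 to 0.37 for Qtrt2 and -0.80 to 0.25 for Zbtb20. Of 129 values of 43 named genes, 64 changed sign in at least 1 alternative.

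No sign was seen that replicate numbers pair the mice. Residuals of the 27 pairs with the same number correlated at -0.0689 on average (-0.35 to 0.286). Those of the 108 other pairs correlated at 0.0173 (-0.416 to 0.385). Averages of this kind cannot exclude a pairing. With a replicate block, 0 members were called in each comparison. Of all 15016 genes, that fit called 1 for genotype on each diet and on average, and 0 for the interaction. For diet it called 47 genes in wild type and 36 in knockout mice. The median member log2 fold changes with this block were 0.030 on low and 0.041 on high cholesterol. A term for the run of library numbers also gave 0 members. Of all genes it called 1 for genotype on each diet and on average, and 0 for the interaction. For diet it called 61 in wild type and 48 in knockout mice. With 4 or 5 mice a group, only 47 members on low and 46 on high cholesterol had intervals inside 2-fold.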

Other observations

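Of the 131 genes of the window below the count minimum, 4 passed the filter on low counts and were tested with the rest (Ildr1, Lsamp, Sidt1 and 4930565N06Rik), and 0 of these were called in edgeR. The summed counts of the 131 were 79 to 127 per wild type and 65 to 115 per knockout mouse on low cholesterol, and 106 to 147 and 87 to 232 on high cholesterol. The highest sum came from knockout mouse 3, the library with the highest cholangiocyte marker sum, where Krt19 and Epcam but not Sox9 and Spp1 were highest. In this mouse Popdc2 had 49 counts (0 to 10 in every other mouse), Ildr1 had 42 (0 to 14) and Gm609 had 32 (0 to 11). Ildr1 is a protein of tricellular junctions in epithelia. Sidt1, a transmembrane protein named for RNA transport that starts 260 kb above Gramd1c, had 132 counts over all mice. Hgd alone took 24.4% to 45.2% of the members' counts in the 19 mice.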
